A study of Mus musculus with 6 samples.

Results

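The genes of the translation initiation factors eIF1 to eIF6 were followed in mouse haematopoietic stem cells (HSCs) sorted by the surface receptor CD93. A gene belonged to the set if its symbol began with Eif and a digit from 1 to 6. The Y-linked Eif2s3y, the eIF2 alpha kinases (Eif2ak symbols) and pseudogene symbols were left out, which gave 51 of the 47937 genes in the deposited table. The choice used symbols and no measured value.

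Poly(A) RNA of HSCs from the bone marrow of wild type C57BL/6 mice was sequenced in 6 libraries. The mice were 8 weeks old and male, per the labels. Both groups came from pooled femora and tibiae, were depleted of lineage-positive cells and were sorted as LSK (lineage-negative, Sca-1+, Kit+), CD34-, Flt3-, CD48- and Slam1+. The groups were CD93pos HSCs (3 libraries) and CD93neg HSCs (3 libraries). The labels call these biological replicates and do not say which or how many animals gave a library, so p-values measure only the spread between these libraries, which may be technical.

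Initiation brings a ribosome and the initiator tRNA to the start codon of an mRNA. In this process eIF2 carries the initiator tRNA as a GTP-bound ternary complex, eIF2B recharges eIF2 with GTP, and eIF1, eIF1A and eIF3 bind the small ribosomal subunit. The cap-binding eIF4E, the helicase eIF4A and the scaffold eIF4G recruit the mRNA, eIF5 and eIF5B act at start codon recognition and subunit joining, and eIF6 keeps the large subunit apart. HSCs are known for a low rate of protein synthesis compared with their progeny, and phosphorylation of eIF2 alpha and the eIF4E-binding proteins are known controls of that rate.

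The libraries differed in ways that touch every value below. Reads assigned to genes were 9509304, 5794528 and 7152750 for CD93pos and 2832653, 4614396 and 3003095 for CD93neg (values of a group are listed for replicates 1, 2 and 3 here and below). CD93neg replicate 1 had no read for 71.0% of the 11805 tested genes, against 2.1% to 26.4% in the other 5 libraries. CD93neg replicates 2 and 3 had high levels of markers of other blood cells. The 14 neutrophil markers summed to 0, 13592 and 9295 CPM (reads scaled to a library total of 1000000) in CD93neg and to 105 to 342 in CD93pos, and the 11 B lineage markers to 0.706, 11121 and 34023 against 76.3 to 102. All 14 neutrophil markers were read in CD93neg replicate 2, 12 in replicate 3 and 0 in replicate 1, and 2, 8 and 10 of the B lineage markers were read in CD93neg. Mast cell and basophil markers moved the other way, and 7 of them summed to 635, 1406 and 1006 CPM in CD93pos and to 0.353, 354 and 245 in CD93neg. All 7 were read in each CD93pos library, against 1, 2 and 1 in CD93neg, and Prss34, Ms4a2, Fcer1a, Hdc and Mcpt8 were at 0 in each CD93neg library. The marker read in CD93neg replicates 1 and 3 was Gata2, which weighs on these sums. In normalized counts (reads divided by a size factor for each library) it had 2348, 1600 and 1364 in CD93pos. In CD93neg it had 1.82, 1435 and 1150, so the groups of Gata2 overlapped. The 7 erythroid markers summed to 182, 124 and 227 CPM in CD93pos and to 0, 15.2 and 82.9 in CD93neg, with 6, 7 and 7 read against 0, 4 and 5. The 8 HSC markers summed to 1235, 1229 and 609 CPM in CD93pos and to 2674, 2575 and 995 in CD93neg. Of these, 3 were read in CD93neg replicate 1 and all 8 in each of the other 5 libraries. Cd34, Cd48 and Flt3, selected against in the sort, summed to 430, 341 and 444 CPM in CD93pos. In CD93neg they summed to 605, 68.9 and 282 CPM. Cd48 had 293, 294 and 300 normalized counts in CD93pos, against 0, 139 and 105 in CD93neg. The groups of Cd34 and of Flt3 overlapped. Cd93 itself had 414, 793 and 338 normalized counts in CD93pos, against 0, 399 and 59.4 in CD93neg. CD93neg replicate 2 lay above CD93pos replicate 3, so the groups overlapped. CD93neg replicates 2 and 3 also went against the label male, and replicate 1 had no read of either gene given here, which leaves its sex untold. Ddx3y on the Y chromosome had 855, 328 and 243 reads across the CD93pos libraries, against 0 in each CD93neg library, and Xist, which coats an inactive X chromosome, had 0, 0 and 12 against 0, 2419 and 1143. The part that depth, other cells and sex played in any difference between the groups was not tested. In bulk RNA, fewer cells of a type and less RNA per cell cannot be told apart.

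In normalized counts 2 genes, Eif1 and Eif4a2, were lower in every CD93pos library than in every CD93neg library, and in CPM Eif4a2 alone was. Each has a close paralog whose groups overlapped. Eif1 encodes the factor that guards start codon choice, and Eif1b is its paralog. Eif4a2 and Eif4a1 encode forms of the eIF4A helicase. The nearest coding windows of 50 bases within 1 exon are shown because the read length was 50 bases and these letters are what tells the paralogs apart. Sequences are from GENCODE M21 transcripts on GRCm38, 5′ to 3′ on the coding strand, with capitals at the bases that differ within a pair.
Eif4a1: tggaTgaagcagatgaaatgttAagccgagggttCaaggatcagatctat
Eif4a2: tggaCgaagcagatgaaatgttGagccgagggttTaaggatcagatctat
Eif1: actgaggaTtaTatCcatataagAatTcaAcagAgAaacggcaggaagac
Eif1b: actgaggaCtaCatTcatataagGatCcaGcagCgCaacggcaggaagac
The Eif4a1 window lies in exon 6 at chr11:69668677-69668726 on the minus strand, and the Eif4a2 window in exon 6 at chr16:23110261-23110310 on the plus strand. They differ at 3 of 50 bases. The Eif1 window lies in exon 2 at chr11:100320713-100320762 and the Eif1b window in exon 2 at chr9:120494154-120494203, both on the plus strand, and they differ at 8 of 50 bases. Over the whole coding sequence Eif4a1 and Eif4a2 are identical at 950 of 1218 aligned bases (78.0%), and Eif1 and Eif1b at 275 of 339 (81.1%). No 50-base window occurs in both members of either pair. Windows can still occur in other genes, as do 19.2% of those of Eif1, most often in Emd (9.66%). Of the 51 genes, 12 share more than 10% of their windows with another gene.

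Of the 51 genes, 49 had a read and 47 passed the filter on low values, an average of 10 or more normalized counts (reads divided by a size factor for each library). Eif4e1b and Eif2c5 had no read in any library. Eif2c5 carries an Argonaute-type symbol that the rule takes in and is a lincRNA in GENCODE. Eif4ebp3, an eIF4E-binding protein gene, had 1 read, in CD93pos replicate 2. Eif5a2, the paralog of Eif5a, had 1 read each in CD93pos replicates 2 and 3. Eif3j2 was the lowest gene inside the filter, at a mean of 11.9, and Eif5a2 the highest outside it, at 0.235.

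No initiation factor gene passed the test between the groups. limma called 0 of the 47 at an adjusted p under 0.05, and called 0% of all 11805 tested genes. Unadjusted, limma put 1391 genes higher in CD93pos (11.8%) and 45 lower (0.381%) at p under 0.05, and Eif4a2 was the only initiation factor gene among them. edgeR called 0 as well, with 1067 higher (9.04%) and 178 lower (1.51%) unadjusted and no initiation factor gene among them. The authors' deposited table called 659 genes higher (5.58%) and 46 lower (0.389%) of the 11813 with an adjusted p, with 0 of the 45 initiation factor genes it gave one for. The fitted log2 fold change was positive for 40 of the 47, against 79.9% of all tested genes, with a median of 2.73 against 2.36. Without CD93neg replicate 1 it was positive for 30 of the 47, against 60.1%, with a median of 0.45 against 0.43.

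The values of some genes were separated between the groups without passing the test. In 16 of the 47 genes (34%) every CD93pos library lay above every CD93neg library, where 18.3% of all tested genes did so. In 2 genes every CD93pos library lay below, where 1.92% of all tested genes did so. Without CD93neg replicate 1, limma put 9 higher (12.5% of all tested genes) and 1 lower (4.4%) at an unadjusted p under 0.05. In the same 5 libraries 21 genes lay above (21.8% of all tested genes) and 5 below (13.8%). The 16 genes above and the 2 below are among these, because leaving a library out cannot undo a separation. The plot of values by library shows the genes unread in CD93neg replicate 1.

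**Figure D1:**
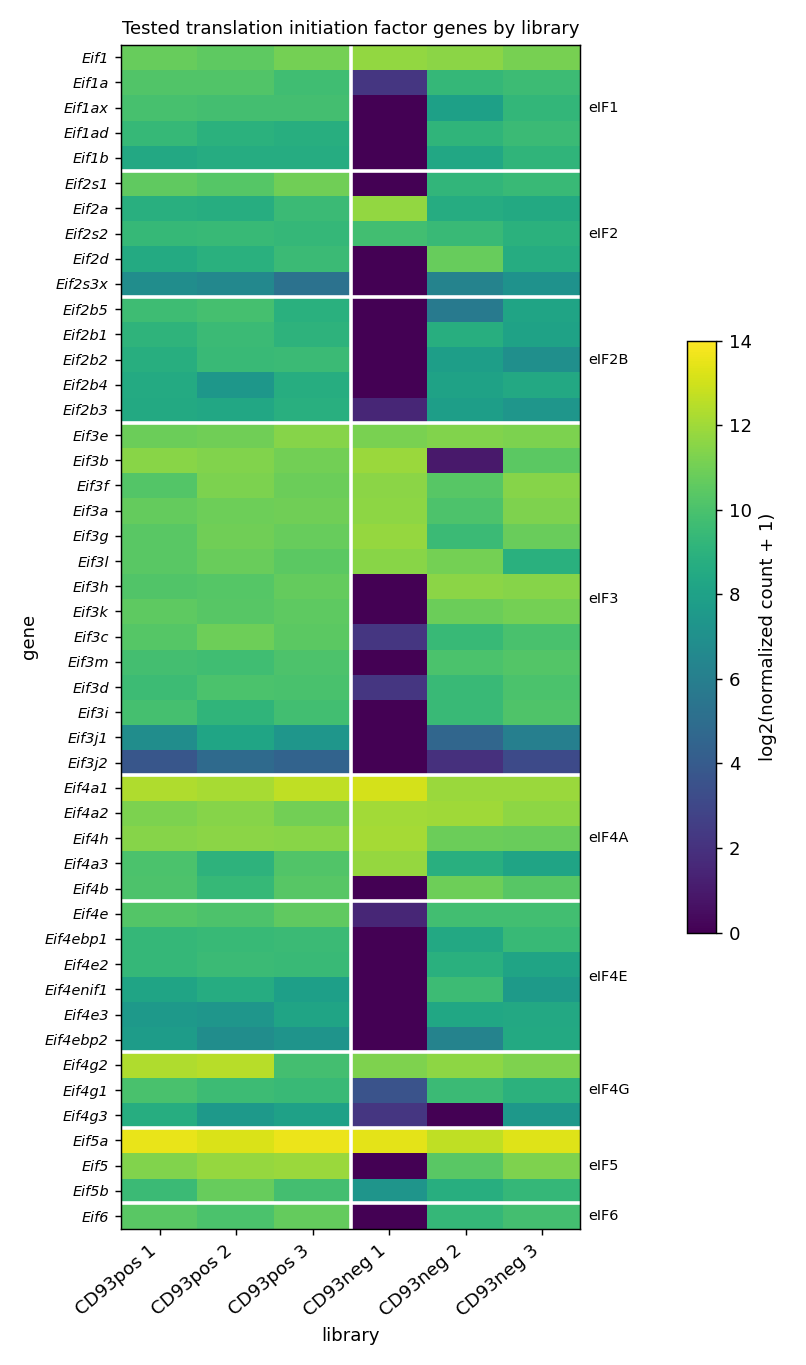
Heat map of the 47 tested initiation factor genes (vertical axis, ordered by factor) in the 6 libraries (horizontal axis), coloured by the log2 of the normalized count plus 1. The CD93pos columns are filled throughout, and CD93neg replicate 1 has 24 genes at 0.

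CD93neg replicate 1 read the initiation factor genes in full or hardly at all. Of the 47 tested genes it had no read for 24, 1 to 9 reads for 7, 10 to 99 reads for 1 and at least 100 reads for 15. Genes with a like level in CD93pos fell on both sides. Eif4h, at a CD93pos mean of 2935 normalized counts, had 2423 reads there, and Eif5, at 3321, had 0. Eif3g, at 1699, had 1911 reads, and Eif2s1, at 1616, had 0. The highest reads in that library were 5989 for Eif5a and 4869 for Eif4a1, the most abundant genes of the set. Among all tested genes 2.8% had 10 to 99 reads and 16.3% at least 100 in that library. Thinning every library to 2832653 reads left 47, 48 and 48 of the 51 genes read in CD93pos and 23, 45 and 47 in CD93neg, against 47, 49 and 48 and 23, 46 and 47 before.

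Together the 51 genes took a larger share of the reads in CD93pos. Their summed level was 15329, 14713 and 15727 CPM in CD93pos and 11806, 12129 and 12696 CPM in CD93neg. The groups did not overlap, and the spread within each was small, at 15256 ± 511 and 12210 ± 451 CPM (SD, n = 3), a ratio of 1.25. The ratio stayed between 1.23 and 1.27 when any 1 library was left out. It was 1.24 without Eif5a, the most abundant of the genes, and 1.17 with the authors' size factors. With mitochondrial, immunoglobulin, neutrophil and B lineage genes taken out of the totals, an alternative added after the data were seen, it was 1.21 and the groups still did not overlap. Those genes took 0.519%, 4.44% and 7.49% of the reads in CD93neg and 0.761% to 1.07% in CD93pos. The like CD93neg totals were made of unlike parts. The 32 genes of the set averaging below 1000 normalized counts summed to 853, 2994 and 2932 CPM in CD93neg. The 19 genes at 1000 or more summed to 10953, 9134 and 9764 CPM there. The CPM ratios of these parts were 1.72 and 1.14, and 1.31 and 1.20 without CD93neg replicate 1.

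**Figure D2:**
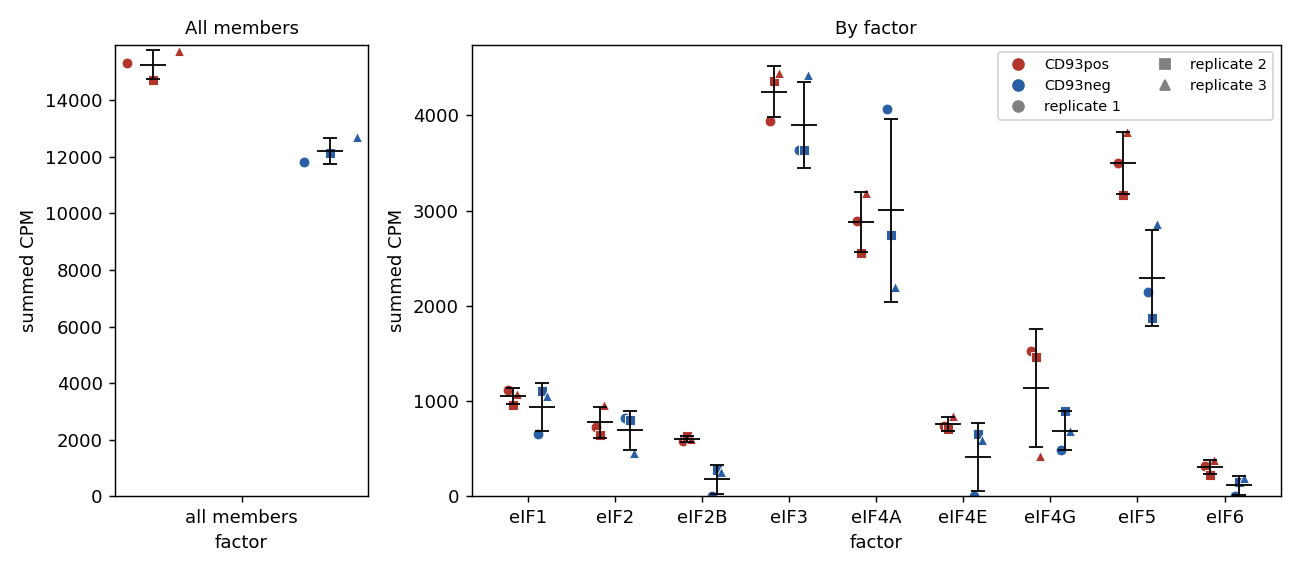
Summed CPM of all 51 genes (left) and of each factor's genes (right), with 1 point per library, marker shapes for the replicate number and bars for the mean ± SD of 3 libraries. CD93pos libraries lie above all CD93neg libraries for all genes together and for the eIF2B, eIF4E, eIF5 and eIF6 groups, and the groups overlap for eIF1, eIF2, eIF3, eIF4A and eIF4G.

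The eIF1 group summed to 1053 ± 81.8 CPM in CD93pos and 936 ± 249.8 CPM in CD93neg (SD, n = 3), and the groups overlapped. Eif1, its most abundant member, had 1708, 1450.1 and 2150.1 normalized counts in CD93pos and 3335, 3071 and 2244 in CD93neg. Every CD93neg value lay above every CD93pos value, by the narrow margin of replicate 3, and the limma log2 fold change was -0.70 ± 0.36 (SE), with an adjusted p of 0.466. In CPM the groups of Eif1 overlapped, and 17 genes of the set lay above (18.8% of all tested genes) and 1 below (1.74%). Eif1b had 355, 404 and 411 normalized counts against 0, 339.6 and 577, on both sides of the CD93pos values.

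The eIF1A proteins, which work with eIF1 on the small subunit, come from Eif1a and Eif1ax. Eif1a had 1157, 1178 and 833 normalized counts in CD93pos and 3.63, 629.8 and 772 in CD93neg. Eif1ax, on the X chromosome, had 978, 894 and 897 against 0, 245 and 617. Both were higher in each CD93pos library, and neither passed the test. The sex-linked reads given above move with the groups, and their part in the values of the X-linked genes was not tested. Eif1ad, an eIF1A domain gene, had 672, 489.7 and 444 normalized counts against 0, 561 and 746, with overlapping groups.

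Among the eIF2 genes, only the alpha subunit was separated. Eif2s1, which encodes the alpha subunit that the stress kinases phosphorylate, had 1544, 1273 and 2031 normalized counts in CD93pos and 0, 587 and 728 in CD93neg. Eif2s2, the beta subunit, had 656, 703 and 644 against 851, 716 and 494, and the groups overlapped around like means of 668 ± 31.1 and 687 ± 181 (SD, n = 3). Eif2s3x, the X-linked gamma subunit, was low, at 115, 91.9 and 37.5 against 0, 77.1 and 138. Of its 50-base windows 34.6% also occur in another gene, chiefly Gm2223, so its reads are uncertain. Its Y-linked copy Eif2s3y, outside the set, had 888, 750 and 768 reads across the CD93pos libraries, against 1, 0 and 0 in CD93neg. A test of the difference between the subunits was not run.

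Eif2a and Eif2d encode factors that can bring the initiator tRNA by other routes. Eif2a had 451, 427 and 747 normalized counts in CD93pos and 3351, 402 and 364 in CD93neg. The single CD93neg replicate 1 was far above the rest and set the sign, with a limma log2 fold change of -0.59 ± 1.20 (SE), an adjusted p of 0.798, and 0.45 without that library. Eif2d had 374, 469.9 and 756 against 0, 1745 and 406. The exons of Eif2a overlap those of Serp1 and the exons of Eif2d those of Rassf5 on the opposite strand, and the strand setting of the counting is not given in the sources used here.

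The 5 genes of eIF2B, the exchange factor that recharges eIF2, had higher CD93pos means throughout and the widest ratio of any factor. Their sum was 578, 634 and 597 CPM in CD93pos and 0.353, 279 and 255 CPM in CD93neg, a ratio of 3.39 and of 2.26 without CD93neg replicate 1. In 4 of the 5 genes every CD93pos library lay above every CD93neg library, where 18.3% of all tested genes did so. Eif2b5, the catalytic epsilon subunit, had 789, 942 and 478 normalized counts in CD93pos and 0, 54.2 and 286 in CD93neg. Its limma log2 fold change was 4.82 ± 2.46 (SE) with an adjusted p of 0.463, and 2.49 without CD93neg replicate 1. Eif2b2, the beta subunit, had 433, 716 and 737 against 0, 227 and 125, a limma log2 fold change of 4.32 ± 2.49 (SE) with an adjusted p of 0.507, and 1.85 without CD93neg replicate 1. Among CD93neg replicates 2 and 3 the values of Eif2b2 were closer to each other than those of Eif2b5. Eif2b1, the alpha subunit, had 544, 751 and 526 against 0, 444 and 272. Eif2b3, the gamma subunit, had 368, 332 and 456 against 1.82, 230.2 and 166. Eif2b4, the delta subunit, was the exception, with 378, 169 and 429.5 against 0, 268 and 347.

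eIF3, the largest factor, is built of many subunits and holds the small subunit open for mRNA. The 14 eIF3 genes summed to 4247 ± 269 CPM in CD93pos and 3898 ± 451 CPM in CD93neg (SD, n = 3), a ratio of 1.09 with overlapping groups. In CD93neg replicate 1 the subunit genes came apart. Eif3a, Eif3b, Eif3e, Eif3f, Eif3g and Eif3l had at least 100 reads each, Eif3c and Eif3d had 2, and the 6 others had 0. In the CD93pos libraries 13 of the 14 had at least 100 reads.

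Levels set per exon length (TPM, scaled to a total of 1000000) let the subunit genes be compared with each other only roughly. The length takes in every annotated exon of a gene, so the order depends on the annotation. Eif3e, at 6719 bases, had a CD93pos mean of 2232 normalized counts and 245 TPM. Eif3h, at 1612 bases, had 1367 normalized counts and 624 TPM. In CD93pos the highest were Eif3g at 632 ± 113, Eif3h at 624 ± 101 and Eif3b at 563 ± 117 TPM (SD, n = 3). Eif3j1 and Eif3j2, the loosely bound j subunit, were lowest at 24.5 ± 12.2 and 6.29 ± 2.32 TPM. In normalized counts 3 of the 14 genes lay above in every CD93pos library and 0 below, near the 18.3% and 1.92% of all tested genes.

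**Figure D3:**
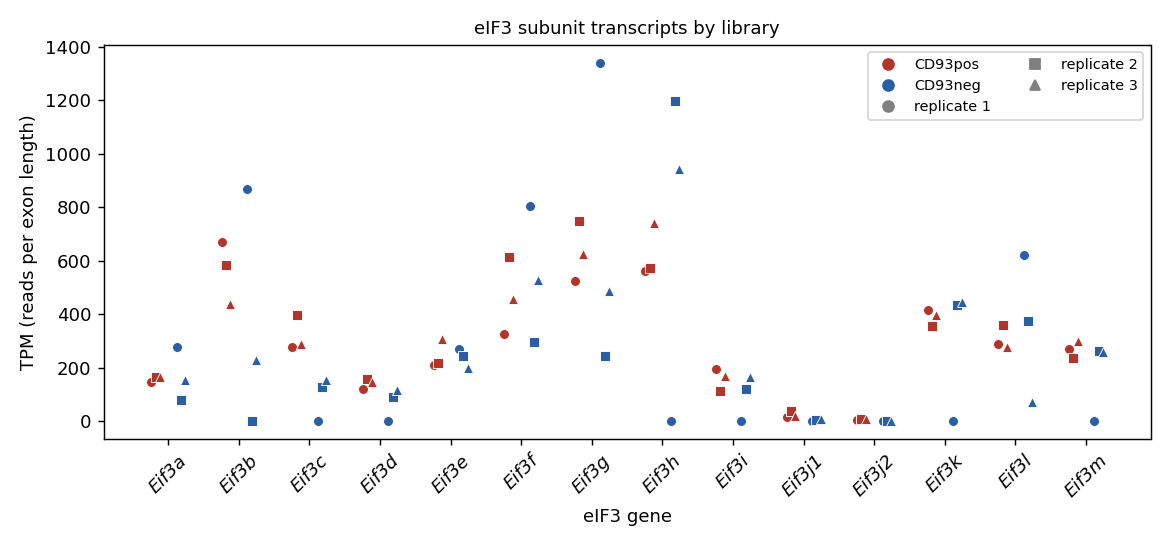
TPM of the 14 eIF3 subunit genes (horizontal axis) in each library, with marker shapes for replicates and colours for the groups. The CD93pos values run from 6.29 TPM on average for Eif3j2 to 632 TPM for Eif3g, and 8 genes are at or near 0 in CD93neg replicate 1.

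Eif3c, Eif3j1 and Eif3j2 were the separated eIF3 genes. Eif3c, a core subunit, had 1281, 1889 and 1412 normalized counts in CD93pos and 3.63, 699 and 994 in CD93neg. Eif3j1 had 116, 303 and 163 against 0, 23.8 and 65.6, a limma log2 fold change of 3.93 ± 2.05 (SE) with an adjusted p of 0.468, and 2.15 without CD93neg replicate 1. Eif3j2 had 12.3, 27.7 and 20.9 against 0, 2.85 and 7.81, with a limma log2 fold change of 2.65 ± 1.41 (SE), an adjusted p of 0.475, and 1.80 without CD93neg replicate 1. The coding sequences of these paralogs are identical at all 783 bases, and 91.9% of the 50-base windows of Eif3j2 also occur in Eif3j1. How the authors' counting divided shared reads is not stated in the sources used here, so the values of both are uncertain. Eif3j2 took 8.39% to 11.4% of the pair's reads in the 5 libraries with at least 20 of them. The exons of Eif3j1 also overlap those of Spg11.

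The other eIF3 genes lay on both sides. Eif3e had 1858, 1980.2 and 2859 normalized counts in CD93pos and 2351, 2558 and 2430.3 in CD93neg, a limma log2 fold change of -0.16 ± 0.34 (SE) with an adjusted p of 0.808. Eif3f had 1229.7, 2404 and 1835 against 3026, 1339.5 and 2785, with a limma log2 fold change of -0.35 ± 0.49 (SE) and an adjusted p of 0.707. Eif3b, a core scaffold subunit, was the most uneven, at 2935, 2647 and 2039 against 3779.6, 0.95 and 1397, and its value in CD93neg replicate 2 came from 1 read. Eif3h had 1184, 1254 and 1661 against 0, 3042 and 2773, so that the 2 CD93neg libraries with reads lay above all of CD93pos and the third lay at 0. Eif3k and Eif3m showed the same gap between CD93neg replicate 1 and the other two.

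The eIF4A group, the helicase that unwinds leader sequences and its cofactors Eif4b and Eif4h, overlapped in sum, at 2876 ± 316 CPM in CD93pos and 3001 ± 963 CPM in CD93neg (SD, n = 3). Eif4a2 had 2425, 2822 and 2092 normalized counts in CD93pos and 4197, 4079 and 3091 in CD93neg. Its values were lower in each CD93pos library than in every CD93neg library, also in CPM, with means of 2447 ± 366 and 3789 ± 607 (SD, n = 3). Its limma log2 fold change was -0.63 ± 0.27 (SE), -0.55 without CD93neg replicate 1, and its adjusted p was 0.402. Eif4a1 had 5188, 4655 and 6488 against 8839, 3782 and 3839, so that CD93neg replicate 1 was highest and the other two were lowest. Of the Eif4a1 windows 28.4% occur in other genes, mostly in the pseudogene Eif4a-ps4, and of the Eif4a2 windows 10.6%. The exons of Eif4a2 overlap those of Rfc4 on the opposite strand, so reads of both genes cannot be told apart without strand.

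The remaining helicase group genes were read in most libraries. Eif4a3, a helicase of the exon junction complex, had 1058, 522 and 1182 normalized counts against 3478, 457 and 284. Eif4h had 2800.0, 3061 and 2943 against 4399, 1821 and 1779, with CD93neg replicate 1 on the high side in both genes. Eif4b had 1092, 662 and 1314 against 0, 1905 and 1299, with that library on the low side.

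In the eIF4E group, which binds the cap or blocks the cap binder, CD93neg replicate 1 was almost empty. The sum was 733, 704 and 841 CPM in CD93pos and 0.353, 649 and 585 CPM in CD93neg, a ratio of 1.85 and of 1.23 without CD93neg replicate 1. Eif4e, the cap-binding protein, had 1213, 1104 and 1559 normalized counts in CD93pos and 1.82, 857 and 856 in CD93neg. Eif4e2, a related cap binder linked to repression, had 637, 750.4 and 714 against 0, 473 and 289. Both were separated between the groups. Eif4ebp1, the binding protein that mTORC1 phosphorylates, had 652, 685 and 747 against 0, 343 and 692, and was separated in CPM but not with the authors' size factors. Eif4ebp2, Eif4e3 and Eif4enif1, the eIF4E transporter, overlapped, at 117 to 212, 162 to 294 and 236 to 413 in CD93pos, and 0 to 364, 0 to 345 and 0 to 778 in CD93neg.

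The eIF4G scaffolds join the cap complex to the ribosome. Eif4g2, a cap-independent relative, had 5208, 5782 and 892 normalized counts in CD93pos and 2489, 3159 and 2538 in CD93neg. CD93pos replicate 3 lay below all CD93neg libraries and replicates 1 and 2 above them, and the eIF4G sum followed, at 1525, 1464 and 421 CPM in CD93pos and 689 ± 202 CPM in CD93neg (SD, n = 3). Eif4g3 had 420.1, 179.9 and 257 against 3.63, 0 and 178, and the groups were only just apart. Its limma log2 fold change was 4.84 ± 2.25 (SE) with an adjusted p of 0.44, and 4.33 without CD93neg replicate 1. Without CD93neg replicate 3 it was the single initiation factor gene that limma called, at 6.97 with an adjusted p of 0.0236, where 15.9% of all tested genes were called higher. With DESeq2 it was again the single call without that library, where 17.9% of genes were called higher, and Eif2b2 the single call without CD93neg replicate 1, where 8.48% were. With CD93neg replicate 1 as the lone library of its group, limma called 32 genes of the set higher and 2 lower, where it called 58.2% and 8.61% of all tested genes. Eif4g1, the main scaffold, had 1003, 761 and 705 against 10.9, 753 and 519, with overlapping groups.

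**Figure D4:**
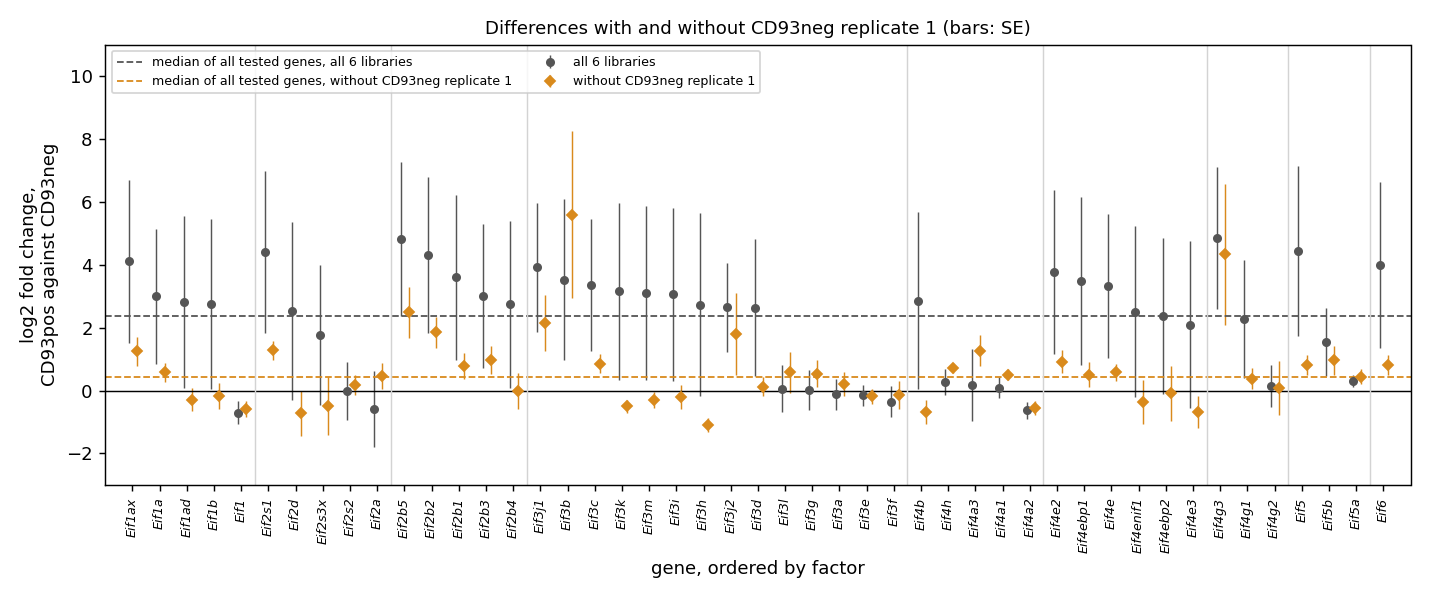
limma log2 fold change (CD93pos over CD93neg) ± SE of the 47 tested genes, ordered by factor, from all 6 libraries (grey) and without CD93neg replicate 1 (orange), with dashed lines at the medians of all tested genes, 2.36 and 0.43. The values without that library are closer to 0 for most genes, and Eif4a2 and Eif1 stay below 0.

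Among the factors of the late steps, the eIF5 group summed to 3502, 3167 and 3828 CPM in CD93pos and 2145, 1876 and 2855 CPM in CD93neg, a ratio of 1.53 and of 1.48 without CD93neg replicate 1. Eif5a, a factor for peptide bond formation that carries hypusine, was the most abundant member at 3451 ± 486 TPM in CD93pos. It had 11842, 9339.9 and 12117 normalized counts against 10872, 6419.9 and 10201, with overlapping groups. Eif5, which triggers GTP hydrolysis on eIF2, had 2643, 3502 and 3818 against 0, 1374 and 2546 and was separated. Eif5b, the subunit-joining GTPase, had 741, 1699.7 and 913 against 158, 441 and 652, also separated, and its exons overlap those of Rev1. Eif6 had 1382, 1043 and 1660.3 normalized counts in CD93pos and 0, 649.8 and 897 in CD93neg. Its CPM ratio was 2.72, and 1.81 without CD93neg replicate 1.

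Shares within paralog pairs do not depend on depth or size factors, but they do depend on genes that a library left unread. Eif1b had 0 reads in CD93neg replicate 1, and Eif4g3 had 0 in CD93neg replicate 2, which put their partners at 100%. Eif4a1 made up 68.1%, 62.3% and 75.6% of the Eif4a1 and Eif4a2 reads across the CD93pos libraries, against 67.8%, 48.1% and 55.4% in CD93neg. The means were 68.7 ± 6.70% and 57.1 ± 9.96% (SD, n = 3), and the groups overlapped through CD93neg replicate 1. Without CD93neg replicate 1, or without CD93pos replicate 2, they did not. Eif1 made up 82.8%, 78.2% and 84.0% of the Eif1 and Eif1b reads against 100%, 90.04% and 79.6%. Eif5a made up nearly all reads of its pair in every library. The other pairs also overlapped between the groups with all libraries, in the libraries with at least 20 reads of the pair.

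**Figure D5:**
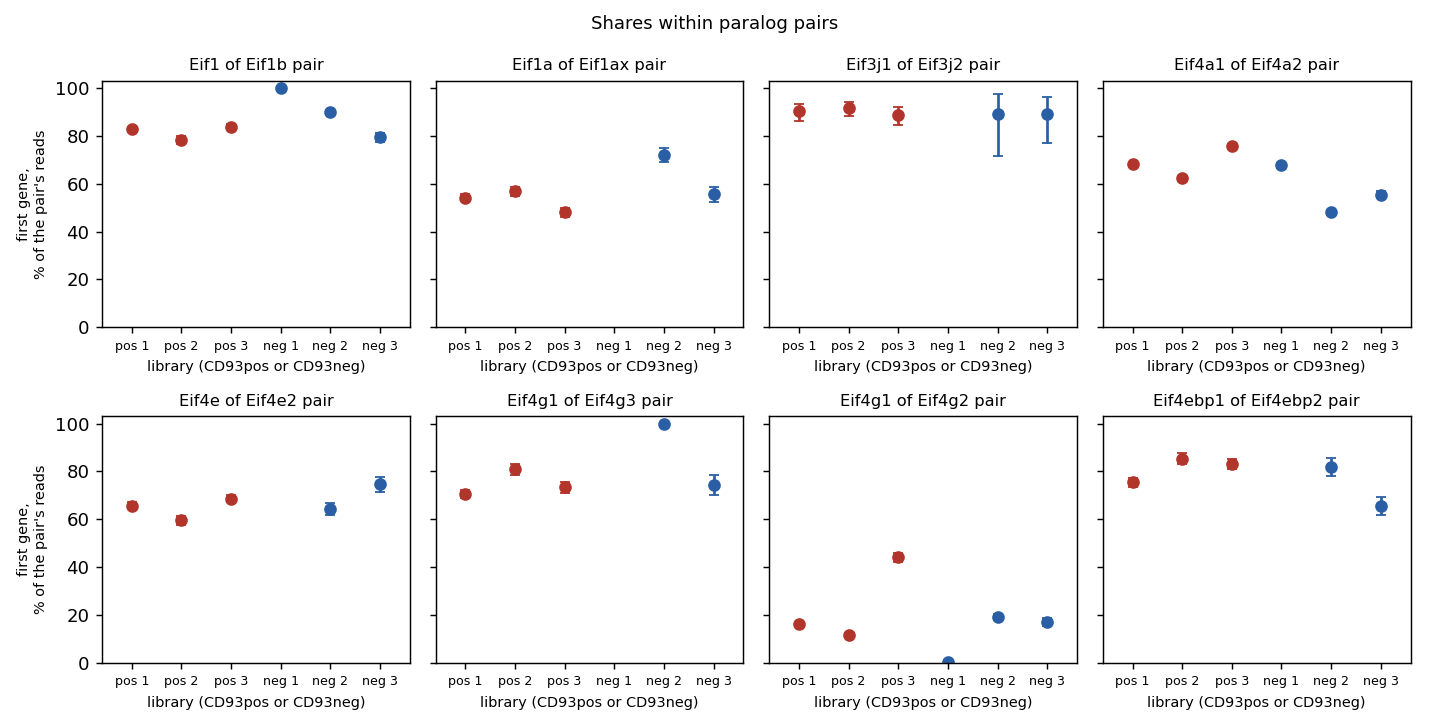
Share of the first gene of each paralog pair, other than Eif5a and Eif5a2, among the pair's reads (vertical axis, percent). Points are the libraries (horizontal axis) with at least 20 reads of the pair, with exact binomial 95% intervals that cover counting error only. Eif4a1 is 62.3% to 75.6% of its pair in CD93pos and 48.1% to 67.8% in CD93neg.

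The ranking of the initiation factor genes was steadier in CD93pos. Over the 47 genes, Spearman's rho between libraries was 0.885 to 0.93 within CD93pos, 0.779 between CD93neg replicates 2 and 3, and 0.414 and 0.468 between CD93neg replicate 1 and those libraries. Between the groups it was 0.571 to 0.855, lowest for CD93neg replicate 1. These are descriptions over genes, which are not independent replicates.

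A further 4 lists of neighbouring translation genes were read in the same fit, and none of their tested genes was called. Their values stand beside 79.9% positive and a median of 2.36 over all tested genes, and 60.1% and 0.43 without CD93neg replicate 1. All 14 tested eIF2 alpha kinase, phosphatase and stress target genes had a positive log2 fold change, with a median of 2.36. Without CD93neg replicate 1, where 10 of them had no read, 10 of the 14 were positive, with a median of 0.81. Ppp1ca encodes a catalytic subunit of the phosphatase that acts on eIF2 alpha. It had 4501.5, 4650 and 4531 normalized counts in CD93pos, against 1872, 2111 and 3521 in CD93neg. Its limma log2 fold change was 0.92 ± 0.29 (SE) with an adjusted p of 0.19. The 20 tested mTORC1 and cap control genes had 15 positive values and a median of 1.91, and 12 and 0.45 without CD93neg replicate 1. Their summed level was 1710 ± 23.5 in CD93pos and 1712 ± 40.8 CPM in CD93neg (SD, n = 3). These like sums were made of unlike parts. In CD93neg replicate 1, 11 of the 20 genes had no read. There Akt1s1 had 4054 normalized counts, against 133 to 389 in the other libraries, and Tsc1 had 2640, against 102 to 309. The 16 tested poly(A)-binding and helicase cofactor genes had 14 positive values and a median of 3.25, and 15 and 0.78 without CD93neg replicate 1. Among them Dhps, which starts hypusine formation on eIF5A, had 139, 162 and 124 normalized counts against 0, 0 and 73.5. Its limma log2 fold change was 5.07 ± 2.00 (SE) with an adjusted p of 0.344. Dohh, in the same list, had 384, 566 and 519 against 0, 630 and 284, with overlapping groups. The 15 elongation and termination genes had 12 positive values and a median of 1.66. Without CD93neg replicate 1 this turned to 5 positive values and a median of -0.23, and their CPM ratio of 1.22 became 0.963.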

How the data were processed

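The 6 RNA sequencing libraries were grouped by their titles into 3 CD93pos and 3 CD93neg. The submitters' processing notes name STAR, the counter featureCounts (Subread 1.5.0-p1), DESeq2 1.26 and the builds GRCm38 and mm10. No annotation release or strand setting is stated in the sources used here. The signal values that the authors deposited are gene counts scaled by one size factor for each library. A second deposited table gives the log2 fold change with its standard error, the Wald score, the p-value and the adjusted p-value. Undoing the size factors gave whole reads (tolerance 0.001) for 100% of the nonzero values.

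The main test was two-sided, in limma 3.58.1 with lmFit and a trended eBayes. It took log2(normalized count + 1) of the 11805 genes that averaged 10 or more, adjusted p by Benjamini-Hochberg over all of them, and called genes under 0.05. Fold changes use this log2 scale, which understates the change of low genes and gives large values where a library is at 0. edgeR 4.0.16 and DESeq2 1.42.0, run in R 4.3.3 on the recovered reads, were alternatives. Summed CPM used all assigned reads, TPM the union exon length, and paralog shares the reads of each pair with an exact binomial 95% interval for counting error only. Symbols were the authors', and positions came from GENCODE M21, in which 47310 of the 47937 IDs were found. Windows of 50 bases were matched exactly between transcripts. Python 3.11.15, numpy 2.4.6, pandas 2.3.3, scipy 1.17.1, matplotlib 3.10.9 and Biopython 1.88 were used.

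Values in all libraries are given for the most abundant gene of each factor and the 5 genes with the smallest p in each direction. They are also given for the genes whose groups did not overlap and those of the paralog pairs, except Eif4ebp2, which is given by ranges. Within the set, fold changes are given for the smallest p alone, with Eif2a, Eif3e and Eif3f among the 5 lower genes. Outside the set they are given for Ppp1ca and Dhps. The genes, the lists and the alternatives were chosen with earlier results of these data known.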

Additional observations from a re-analysis of the deposited data

How the results depend on the processing

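No initiation factor gene was called by limma with another pseudocount, filter or scaling, with library weights, or by edgeR or DESeq2. The number called was 0 to 1 when a library was left out. The 1 was Eif4g3 without CD93neg replicate 3. With DESeq2 and a library left out, alternatives added after the data were seen, it was also 0 to 1, Eif2b2 without CD93neg replicate 1 (log2 fold change 1.86, adjusted p 0.0378) and Eif4g3 without CD93neg replicate 3 (7.50, adjusted p 0.00519). Without CD93neg replicates 2 and 3, 34 were called, 32 of them higher, where 58.2% of all tested genes were called higher, and the lone CD93neg library was assumed to vary like the others. Of all tested genes limma called 0 in the main fit, 206 with a pseudocount of 0.5, and 0 to 1880 with a library left out, with 774 without CD93pos replicate 2, 1 without CD93neg replicate 1 and 1880 without CD93neg replicate 3. Without CD93neg replicates 2 and 3 it called 7892. DESeq2 called 705. It called 310, 245 and 220 without CD93pos replicates 1, 2 and 3 in turn, and 1339, 1094 and 2446 without CD93neg replicates 1, 2 and 3. The cause of these differences was not tested.

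Over all settings other than DESeq2 with a library left out, the sign of the fold change turned at least once in 26 of the 47 genes and in no case in 21, and without CD93neg replicate 1 it turned in 16. Eif2s2 turned in 9 settings, Eif3a and Eif4a3 in 6, and Eif3g and Eif4a1 in 5. Among the 10 initiation factor genes given with a fold change, the sign turned for Eif2a, Eif3e, Eif3f and Eif3j2. For Eif2a it turned with library weights (0.32) and without CD93neg replicate 1 (0.45, in a leave-one-out range of -1.15 to 0.45). It also turned for Eif2a with DESeq2 without CD93neg replicate 1 (0.53). For Eif3e it turned with TMM (0.080), quantile normalization (0.18) and edgeR (0.094). With quantile normalization it turned for Eif3f (0.050) and Eif3j2 (-1.88). Scaling moved the median log2 fold change of all tested genes from 2.36 to 1.68 (CPM), 1.75 (TMM) and 0.02 (quantile), with the initiation factor genes at 2.05, 2.11 and 0.92. The summed CPM ratio of 1.25 was 1.17 with the authors' size factors.

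The replicate number as a block gave 24 called genes and 0 initiation factor genes. Same-numbered libraries correlated by 0.037, 0.019 and 0.061 in their deviations from the group means, too weakly to pair them, though each library correlated best with its own number. Fold changes of genes at 0 in CD93neg replicate 1 depend on the pseudocount, 1 in the main fit, whatever the depth of that library.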

Other observations

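Eif4a-ps4, a pseudogene copy outside the set, had 279, 127 and 257 reads across the CD93pos libraries, against 99, 113 and 58 in CD93neg. This was 2.46%, 2.16% and 2.44% of the Eif4a1 reads in CD93pos and 2.03%, 2.84% and 2.36% in CD93neg, a like share in all 6 libraries.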
